A study of Homo sapiens with 5 samples.

Results

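Day 9 of afatinib was compared with day 6 in single MDA-MB-468 cells. MDA-MB-468 is a basal-like triple-negative breast cancer line with high EGFR, and in this study its cells carried lineage barcodes. Cells of the day 9 library (D9) and of the day 6 library (D6) were taken by the prefix of their names, which gave 1139 and 942 cells, or 2081 of the 4101 cells in the series. The counts of all cells of a library were summed per gene, and the comparison was repeated with the 188 D6 and 857 D9 cells whose mitochondrially encoded genes (MT- genes) took under 10% of their counts. Transcripts were counted with a 3′ Chromium kit. Both libraries came from cells under 250 nM afatinib, and the series also holds a library at 3 days of the same dose (D3) and 2 untreated libraries of day 0 (D0 replicates 1 and 2). Per the study's methods, cells were frozen at each time and thawed before capture. Each treated day had 1 library, so the differences below have no replicate check, no p-value is given, and intervals cover counting error only.

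Afatinib binds covalently to the kinase domains of EGFR, ERBB2 and ERBB4 and blocks the signal that these receptors send through the RAS-ERK and PI3K-AKT pathways. Cells that outlive such a drug without a resistance mutation are known as drug-tolerant persisters, and they often cycle slowly and change their metabolism and differentiation state. In single-cell data a high share of mitochondrially encoded RNA is commonly seen in stressed or leaky cells, because cytoplasmic RNA is lost before the RNA inside mitochondria.

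Total counts were 15688089 at D6 and 23638242 at D9, and the median cell held 13862 and 20216 UMIs. MT- genes took 7.25% and 7.80% of counts in D0 replicates 1 and 2, 17.2% at D3, 15.995% at D6 and 8.82% at D9. Only 19.96% of D6 cells had an MT- share under 10%, against 75.2% of D9 cells. Those cells were deeper and closer to each other, with medians of 24301.5 UMIs at D6 and 22239 at D9. Near the limit, 56 D6 and 111 D9 cells lay between 9% and 10%, and 47 and 63 cells between 10% and 11%. No cell barcode was shared by D6 and D9. None of the immune cell markers searched was in the matrix, the 2 fibroblast and 2 endothelial markers in it summed to at most 8.75 and 7.44 CPM (counts scaled to a common library total) in any library, and the 12 line markers, EGFR among them, summed to 3420 CPM at D6 and 3946 CPM at D9.

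A mean of 10 CPM or more over D6 and D9 was asked of a gene. Of the 8661 that had it, 46 were at least 2-fold higher at D9 (0.531%) and 171 at least 2-fold lower (1.97%), so 2.51% passed the fold in either direction. Ratios were scaled with TMM factors and are given as log2 of D9 over D6, and levels are plain CPM. The same fold was passed by 0.495% of genes between D3 and D6 and by 0.0849% between the D0 libraries, whose counts the authors had adjusted towards each other. The counts of D3, D6 and D9 come from the same adjusted matrix. In cells under 10% MT-, 8445 genes could be compared, of which 5 were higher (0.0592%) and 220 lower (2.61%). All 5 were also among the 46 of all cells, whereas 117 genes were lower in both, which is 68.4% of the list from all cells and 53.2% of the list from cells under 10% MT-. No gene passed the fold in opposite directions. The genes nearest the fold were GSTZ1, just inside at a log2 ratio of 1.01, and ACYP2, just outside at 0.9953, on the higher side, and SNHG25 at -1.003 and COX7B at -0.9987 on the lower side.

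Short transcripts were at least 2-fold lower at D9 more often than longer ones. Most of the lower genes had longer canonical transcripts all the same, with 46 of up to 600 bases and 123 of over 600. Some of the 123 have a short coding sequence, such as RPL37 (7573 bases, 291 of them coding) and ATP5F1E (3610 and 153). The length of the canonical transcript (GENCODE v44, GRCh38) was known for 8653 of the 8661 genes. Of the 21 genes of up to 400 bases, 16 were at least 2-fold lower at D9, and the class had a median log2 ratio of -1.66. Of 141 genes of over 400 and up to 600 bases, 30 were lower, with a median of -0.48. No gene of up to 600 bases was at least 2-fold higher. Above that length the medians were 0.55 for 489 genes of up to 1000 bases, 0.44 for 1711 genes of up to 2000 bases, 0.06 for 2960 of up to 4000, -0.16 for 1710 of up to 6000 and -0.27 for 1621 longer genes, beside 0.02 for all genes compared.

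Between D3 and D6, and between the D0 libraries, the short classes differed less. Genes of up to 400 bases had a median log2 ratio of 0.04 for D6 over D3 and of -0.02 for D0 replicate 2 over replicate 1, and genes of over 400 and up to 600 bases had 0.20 and -0.04. Against D0, the treated libraries were graded by length as well, on plain CPM. Over D0 replicate 1, genes of up to 400 bases had a median of -0.51 at D3, -0.49 at D6 and -2.66 at D9, beside 0.17, 0.09 and 0.22 for all genes. Genes of over 6000 bases had 0.51 at D3, 0.47 at D6 and 0.26 at D9, so the long end was nearer to D0 at D9 and the shortest class was farther from it. The lower ratios of short genes between D6 and D9 were seen in cells of either MT- share. The shortest class had a median of -2.10 in cells under 10% MT- and of -1.65 in the 754 D6 and 282 D9 cells at or over 10%, a split added after the data were seen. Why short transcripts were lower in the D9 library was not tested, and with 1 library a day the day and the library cannot be told apart. Medians after the running median of genes of like length was taken off are given below as length-adjusted.

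**Figure D1:**
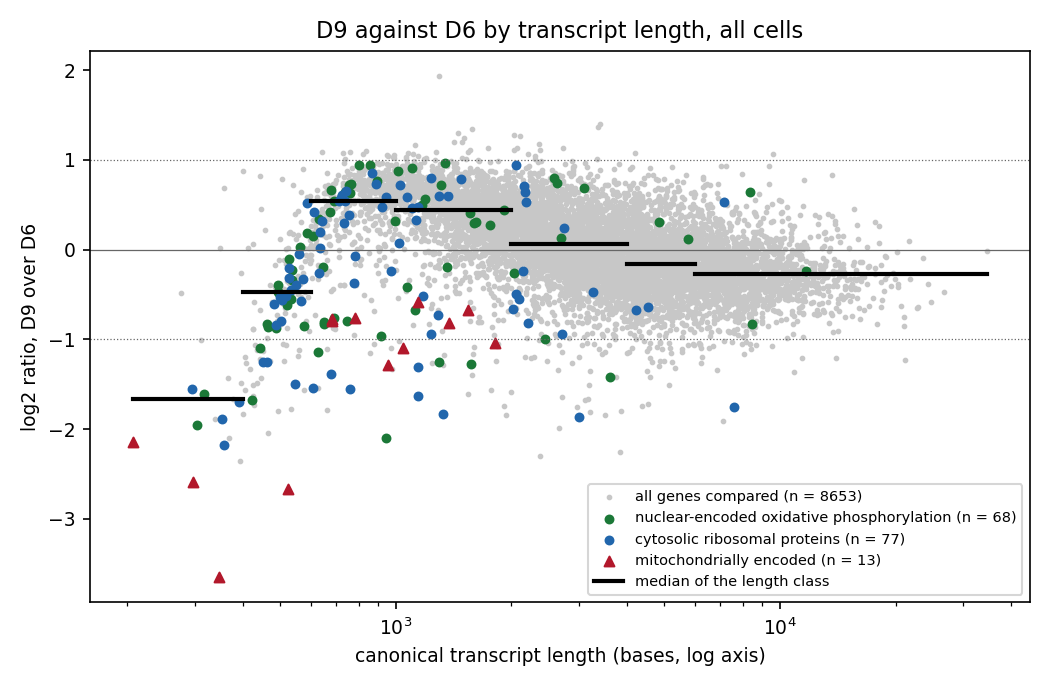
Log2 ratio of D9 over D6 (vertical axis) against canonical transcript length in bases (horizontal log axis) for 8653 genes, each a point; black bars are the medians of length classes and dotted lines mark the 2-fold limits. The medians run from -1.66 in genes of up to 400 bases to 0.55 in genes of over 600 and up to 1000 bases, and 9 of the 13 mitochondrially encoded genes lie below the medians of their classes at lengths above 600 bases.

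Mitochondrially encoded genes were lower at D9 as a group, and 4 of them by far more than the rest. All 13 had a log2 ratio under 0 and 7 passed the fold, with a median of -1.04. MT-ND3, a subunit of respiratory complex I encoded at bases 10059 to 10404 of the mitochondrial genome, stood at 6906 and 7497 CPM in D0 replicates 1 and 2, 15929 at D3, 13243 at D6 and 1076 at D9. Its log2 ratio was -3.65 (95% counting interval -3.67 to -3.63), the lowest of any gene with a symbol among those compared, and D9 was the lowest of the 5 libraries. MT-ND4L, another complex I subunit, was at 617 CPM at D6 and 105 at D9 (-2.59), MT-ND6, the complex I subunit encoded on the other strand, at 113 and 18.1 (-2.66), and MT-ATP8, a subunit of ATP synthase, at 181 and 41.9 (-2.14). MT-CO1, a catalytic subunit of complex IV, was at 26275 and 16890 CPM (-0.67), and MT-CYB of complex III at 16593 and 11271 CPM (-0.59).

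Read as a share of all MT- counts, which sets aside how much MT- RNA a library held, the 4 genes still stood apart. MT-ND3 took 9.53% and 9.61% of MT- counts in D0 replicates 1 and 2, 9.28% at D3, 8.28% at D6 and 1.22% at D9, a 6.79-fold lower share than at D6. The shares of MT-ND6, MT-ND4L and MT-ATP8 were 3.42-fold, 3.24-fold and 2.38-fold lower. The other 9 genes, of 681 to 1812 bases, had shares at D6 of between 0.812 and 1.31 times those at D9. By annotated gene length the 4 genes are the only ones under 600 bases, at 346 (MT-ND3), 525 (MT-ND6), 297 (MT-ND4L) and 207 bases (MT-ATP8). The lengths of the RNAs that carry them were not measured. MT-ATP8 and MT-ND4L overlap MT-ATP6 and MT-ND4, so reads in the shared bases could not be given to a single gene. MT-ATP6 and MT-ND4 had log2 ratios of -0.77 and -0.82 in all cells.

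In cells under 10% MT-, where MT- genes took 7.93% of counts at D6 and 7.18% at D9, MT-ND3 still had a log2 ratio of -2.94, MT-ND4L -1.82, MT-ND6 -1.70 and MT-ATP8 -1.49. MT-CO1 was at -0.14 and MT-CYB at -0.09 there, and only those 4 short genes passed the fold. MT-ND1 passed it in all cells (-1.28) but not in cells under 10% MT- (-0.58) or at or over 10% (-0.50). A pair of transcripts for which the tables hold no symbol, ENSG00000255823 (132 CPM at D6, 8.46 at D9) and ENSG00000269028 (264 and 51.1), had log2 ratios of -3.99 and -2.40.

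**Figure D2:**
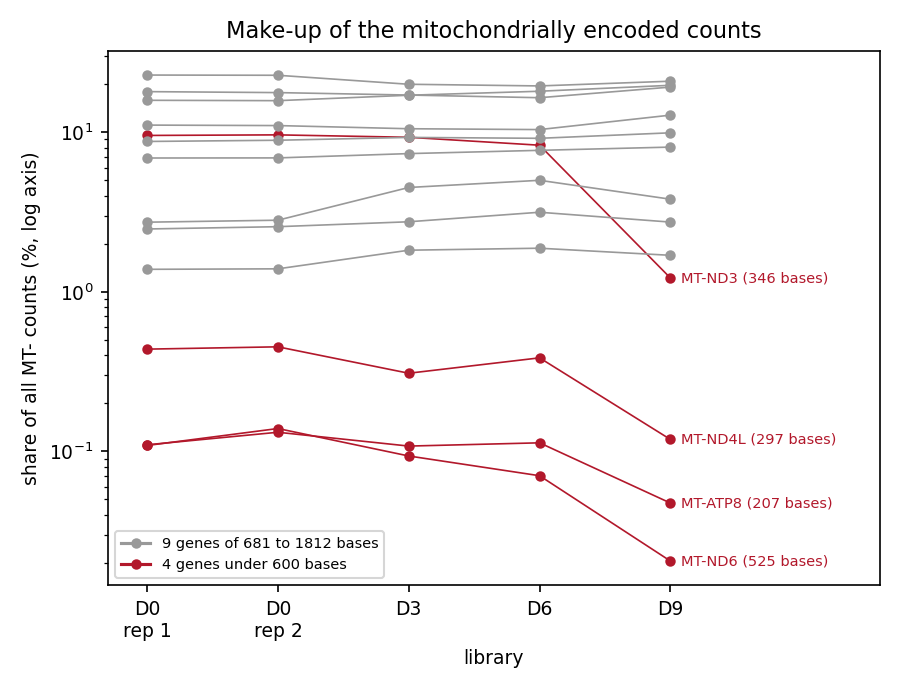
Share of all MT- counts (vertical log axis, percent) taken by each of the 13 mitochondrially encoded genes in the 5 libraries (horizontal axis); each point is 1 library and lines join the same gene. The 4 genes under 600 bases (red) are lower at D9 than in the other 4 libraries, with MT-ND3 at 1.22% against 8.28% to 9.61%, while the other 9 (grey) stay within 0.812 to 1.31 times between D6 and D9.

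Cytosolic ribosomal proteins, the protein part of the ribosome, split by size. Of 77 compared, 15 were at least 2-fold lower at D9 and none higher, with a median of -0.31 (0.09 in cells with 10000 to 20000 UMIs), and in cells under 10% MT- 35 were lower, with a median of -0.81. RPS21, a small-subunit protein, stood at 3133 and 3091 CPM in D0, 2454 at D3, 2466 at D6 and 558 at D9 (log2 ratio -2.17, interval -2.20 to -2.15, and -2.42 in cells under 10% MT-). RPS27 stood at 4989, 4874, 2586, 2635 and 726 CPM in the same order (-1.89 and -2.51). D9 was the lowest of the 5 libraries for both. RPL37A (-1.86), RPS28 (-1.83), RPL37 (-1.75), RPL39 (-1.70), RPL38 (-1.63), RPS29 (-1.55) and RPL41 (-1.38) were lower too, and 7 of 7 had a lower ratio in cells under 10% MT-.

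Among large ribosomal proteins the sign turned. RPS3 stood at 3267 CPM at D6 and 6391 at D9 (log2 ratio 0.94), RPS4X at 2223 and 3926 (0.79), RPL5 at 1672 and 2819 (0.72) and RPL3 at 1805 and 2792 (0.60). None of these passed the fold, and they were at 0.40, 0.35, 0.26 and 0.27 in cells under 10% MT-. All 9 proteins with a coding sequence of up to 300 bases passed the fold, with a median of -1.75. Of 27 with over 300 and up to 450 bases 6 passed (median -0.66), and none of 19 with over 450 and up to 600 (0.07) or of 22 longer ones (0.59). Across the 77 genes the log2 ratio and the coding length had a Spearman correlation of 0.917, and of 0.931 in cells under 10% MT-; these are genes of the same 2 libraries and share their depth. Coding length was used here because the canonical transcript of some of these genes, such as RPL37, is a long isoform. Many ribosomal protein genes have processed pseudogenes of near-identical sequence, so their counts are uncertain where reads fit several copies.

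Nuclear-encoded subunits of oxidative phosphorylation showed the same order. Of 68 compared, 9 were lower and none higher at D9. The median was -0.15, but 0.16 in cells with 10000 to 20000 UMIs, 0.09 after thinning, 0.04 by the mean of per-cell CPM and 0.00 length-adjusted, and 21 were lower in cells under 10% MT- (median -0.52). NDUFA3, an accessory subunit of complex I, was at 154 and 164 CPM in D0, 70.8 at D3, 79.7 at D6 and 19.0 at D9 (log2 ratio -2.10). ATP5ME, a subunit of ATP synthase, was at 564, 561, 190, 179 and 47.0 CPM (-1.95). NDUFA1 (-1.67), NDUFB1 (-1.61), ATP5F1E (-1.42), UQCRQ of complex III (-1.27) and COX7C of complex IV (-1.14) also passed the fold. For NDUFA3 and ATP5ME, D3 and D6 were already below both D0 libraries, and D9 was lower again.

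The 19 subunits with a coding length of up to 300 bases held all 9 of those genes and had a median of -0.999. The medians were -0.48 for 19 subunits of up to 450 bases, 0.60 for 10 of up to 600 and 0.60 for 20 longer ones. NDUFB5, a larger accessory subunit of complex I, was outside the list and at 67.7 CPM at D6 and 146 at D9 (1.08 in all cells, 0.49 under 10% MT-). Mitochondrial ribosomal proteins had a median of 0.51 over 77 genes, with 2 higher (MRPL39 and MRPL17) and 1 lower. In cells under 10% MT- they had 0.14. The 3 with a coding length of up to 300 bases had a median of -0.34, and 19 of up to 450 bases had 0.33. The Spearman correlation of log2 ratio and coding length was 0.78 for oxidative phosphorylation and 0.19 for mitochondrial ribosomal proteins. It was 0.32 for 16 histones and -0.66 for 31 proteasome subunits, which all have over 600 coding bases.

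**Figure D3:**
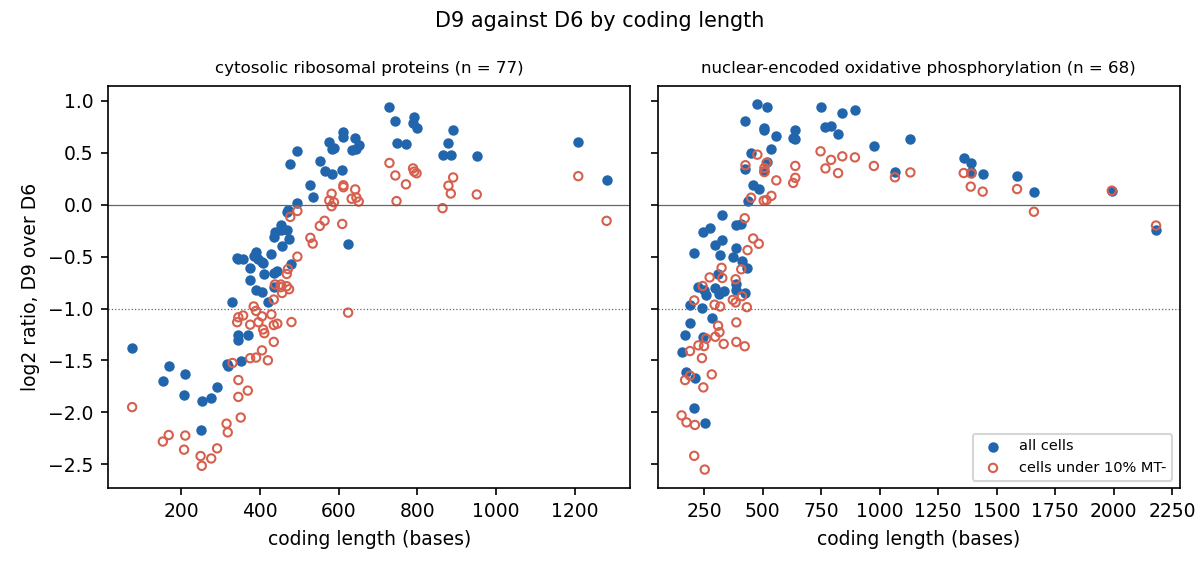
Log2 ratio of D9 over D6 (vertical axis) against coding length in bases (horizontal axis) for 77 cytosolic ribosomal proteins (left) and 68 nuclear-encoded subunits of oxidative phosphorylation (right); filled points are all cells, open points cells under 10% MT-. Proteins with up to 300 coding bases have medians of -1.75 and -0.999 in all cells and those over 600 bases have 0.59 and 0.60.

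Of 3 metallothioneins compared, MT2A and MT1X were lower, and MT1F was at 19.1 CPM at D6 and 20.3 at D9 (log2 ratio 0.06). MT2A, a metallothionein that binds zinc and copper, stood at 3243 and 3213 CPM in D0, 279 at D3, 234 at D6 and 67.2 at D9 (log2 ratio -1.83, interval -1.92 to -1.75). MT1X stood at 244, 242, 29.1, 20.02 and 8.88 CPM (-1.20, interval -1.46 to -0.95). Most of the distance between D0 and D9 lay between D0 and D3 for both. Their transcripts are of 401 and 404 bases, and after the running median of genes of like length was taken off, MT2A was at -0.50 and MT1X at 0.10. The metallothioneins are close copies of each other, so reads could be split among them.

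S100A2, a calcium-binding protein of basal epithelia with a canonical transcript of 977 bases, stood at 2679 and 2596 CPM in D0, 1063 at D3, 933 at D6 and 380 at D9 (-1.33), and S100A6, of 434 bases, at 829 and 390 at D6 and D9 (-1.12). S100A6 was chosen after its values were seen. Among 16 histones compared, 3 were lower and none higher: H4C3 at 1041 and 358 CPM (-1.57), H2AC20 at 35.1 and 10.3 (-1.79) and H3C2 at 21.5 and 9.26 (-1.25). Replication-dependent histone genes are near-identical in sequence and their mature messages lack a poly(A) tail, which the 3′ kit primes on. SNHG19, a noncoding host of small nucleolar RNAs with a transcript of 394 bases, was at 50.5 and 10.1 CPM (-2.35).

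All 46 genes of up to 600 bases that were lower at D9 lay below both D0 libraries at D9, and 41 of them lay below both at D6 already. Of all 8661 genes compared, 2515 lay below both at D9, and 1815 of those lay below both at D6 as well. The 46 were chosen for a low D9 relative to D6, so nothing is read from their counts either. Of 123 with a canonical transcript of over 600 bases, 83 lay above both D0 libraries at D6, 36 of them at least 2-fold. At D9, 53 of the 83 were no longer above both. Of all 8661 genes compared, 4544 lay above both at D6 and 482 at least 2-fold; the 123 were chosen for a high D6 relative to D9, so nothing is read from their counts. In cells under 10% MT- as well, 69 of the 123 passed the fold.

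Several regulators were high at D6 against both D0 and D9. Genes at least 2-fold lower at D9 in all cells and in cells under 10% MT-, and at least 2-fold above both D0 libraries at D6, numbered 16. The rule was made after the values were seen, and the high D6 level is a description. D6 was the highest library for 14 of them, while ENSG00000269028 (354 CPM at D3, 264 at D6) and ITPKB were higher at D3. RIPK4, a kinase needed for epidermal differentiation, stood at 15.02 and 14.96 CPM in D0, 29.2 at D3, 98.0 at D6 and 20.9 at D9 (log2 ratio -2.26, interval -2.41 to -2.11). ZNF750, a transcription factor of epidermal differentiation, stood at 6.75, 7.67, 26.6, 101 and 32.6 CPM (-1.66, interval -1.79 to -1.54). Both remained above the D0 libraries at D9.

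Of the 16, MAFF, ATF3 and NR4A1 are in the list of immediate early factors. MAFF, a small MAF transcription factor, stood at 11.9 and 11.8 CPM in D0, 14.8 at D3, 69.03 at D6 and 14.3 at D9 (-2.29, interval -2.48 to -2.12). ATF3, a stress-induced transcription factor, stood at 11.7, 11.4, 15.1, 37.7 and 10.7 CPM (-1.85, interval -2.07 to -1.63). D6 was the highest of the 5 libraries for both, and D9 was close to the D0 libraries. TIPARP, an ADP-ribosyltransferase induced by the aryl hydrocarbon receptor, was at 28.6 and 8.38 CPM at D6 and D9 (-1.80), the repressor PRDM1 at 15.2 and 5.46 (-1.51), the nuclear receptor NR4A1 at 32.9 and 16.3 (-1.04) and the repressor BHLHE40 at 43.8 and 21.7 (-1.04). BBC3, which encodes the pro-apoptotic protein PUMA, was at 17.6 and 8.63 CPM (-1.06), ZC3H12A, an RNase that restrains inflammation, at 19.3 and 9.43 (-1.06), and ITPKB, an inositol trisphosphate kinase, at 15.8 and 7.02 after 19.1 at D3 (-1.20). The noncoding LINC-PINT and MIR22HG were at 34.5 and 11.5 CPM (-1.61) and at 17.1 and 7.28 CPM (-1.26).

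Genes that Notch induces were in the same set. HES1, a repressor that Notch induces, stood at 139 and 137 CPM in D0, 199 at D3, 348 at D6 and 135 at D9 (-1.40, interval -1.46 to -1.34). NRARP, a Notch-induced feedback inhibitor, stood at 5.44, 5.29, 22.9, 54.9 and 22.04 CPM (-1.35). HES1 at D9 was below both D0 libraries, and NRARP at D9 was above both. The ligand JAG1 was at 21.5 and 10.5 CPM (-1.06 in all cells, -0.54 under 10% MT-), and MAML2, a Notch co-activator, at 127 and 34.5 CPM (-1.91 and -1.74). Of 8 Notch receptors and targets compared, 3 were lower and none higher (median -0.51 in all cells, -0.23 under 10% MT-). Among 13 immediate early factors 4 were lower, MAFF, ATF3, NR4A1 and FOSL2 (22.1 and 10.7 CPM, -1.07), and none higher (median -0.60 and -0.73).

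Of the 16 genes, the 15 with a known length have transcripts of 1539 to 6269 bases, and ENSG00000269028 could not be length-adjusted. After the running median of genes of like length was taken off, RIPK4 was at -2.14, MAFF at -2.51 and ATF3 at -2.14. ZNF750 was at -1.68 and HES1 at -1.79, and each of these named genes stayed past the fold. In cells at or over 10% MT-, RIPK4 was at -2.12, MAFF at -2.29, ATF3 at -2.06, ZNF750 at -1.49 and HES1 at -1.32. There 13 of the 16 passed the fold, and NR4A1 (-0.67), ITPKB (-0.86) and BBC3 (-0.89) did not. Of all 8661 genes compared, 149 passed it there as lower. The 16 were chosen on sums that include these cells, so nothing is read from the 13. Shares of cells with a UMI, after each cell was thinned to 5000 UMIs, come from the cells that the genes were chosen on. They describe the same difference. RIPK4 was found in 37.3% of D6 cells (exact binomial 95% interval 34.2 to 40.4) and 9.92% of D9 cells (8.25 to 11.8), against 7.74% and 6.397% in D0. ZNF750 was found in 36.9% and 14.7% and HES1 in 77.7% and 46.6% of D6 and D9 cells. Before thinning, RIPK4 was found in 65.8% of D6 and 29.1% of D9 cells. The files hold a single cell line, so no cell type that lacks these genes was at hand as a background.

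Promoters of 13 of the 15 genes with a symbol were in the RefSeq table (250 bases before to 50 after the gene start). Those of HES1, the Notch-induced gene with the most matches to the RBPJ core, and MAFF, which held the rarest motif, are shown; capitals mark matches on either strand to TGGGAA, the core of the site of the Notch effector RBPJ, to TGANTCA, the AP-1 element, and to TGACGTCA, the cyclic AMP response element. They lie at chr3:194135898-194136197 (HES1, plus strand) and chr22:38201744-38202043 (MAFF, plus strand) of GRCh38.p14.
HES1: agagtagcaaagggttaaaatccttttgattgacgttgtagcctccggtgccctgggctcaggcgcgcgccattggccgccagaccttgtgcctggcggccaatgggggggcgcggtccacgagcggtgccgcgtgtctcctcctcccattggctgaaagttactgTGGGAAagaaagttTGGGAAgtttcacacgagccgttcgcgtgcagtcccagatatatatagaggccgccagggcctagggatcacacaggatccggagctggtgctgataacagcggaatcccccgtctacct
MAFF: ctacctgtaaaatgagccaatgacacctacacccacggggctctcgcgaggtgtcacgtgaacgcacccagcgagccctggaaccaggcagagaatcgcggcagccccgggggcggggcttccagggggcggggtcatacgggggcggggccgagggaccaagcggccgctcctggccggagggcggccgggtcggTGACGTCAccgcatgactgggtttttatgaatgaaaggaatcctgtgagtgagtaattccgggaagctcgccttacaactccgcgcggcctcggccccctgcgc

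HES1 held 2 matches to TGGGAA and MAFF held 1 match to TGACGTCA. LINC-PINT, not shown, held 2 matches to TGANTCA. NRARP, which Notch also induces, held no match to any of these motifs. Over the 13 promoters, 2 held TGGGAA, 2 held TGANTCA and 1 held TGACGTCA, whereas 24.0%, 7.71% and 1.85% of all 35116 promoters in the table did. A match is a description of the letters and not a site in use. HES1 spans bases 194136148 to 194138732 of chromosome 3 and RIPK4 bases 41739369 to 41767089 of chromosome 21 (GENCODE v44, GRCh38).

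**Figure D4:**
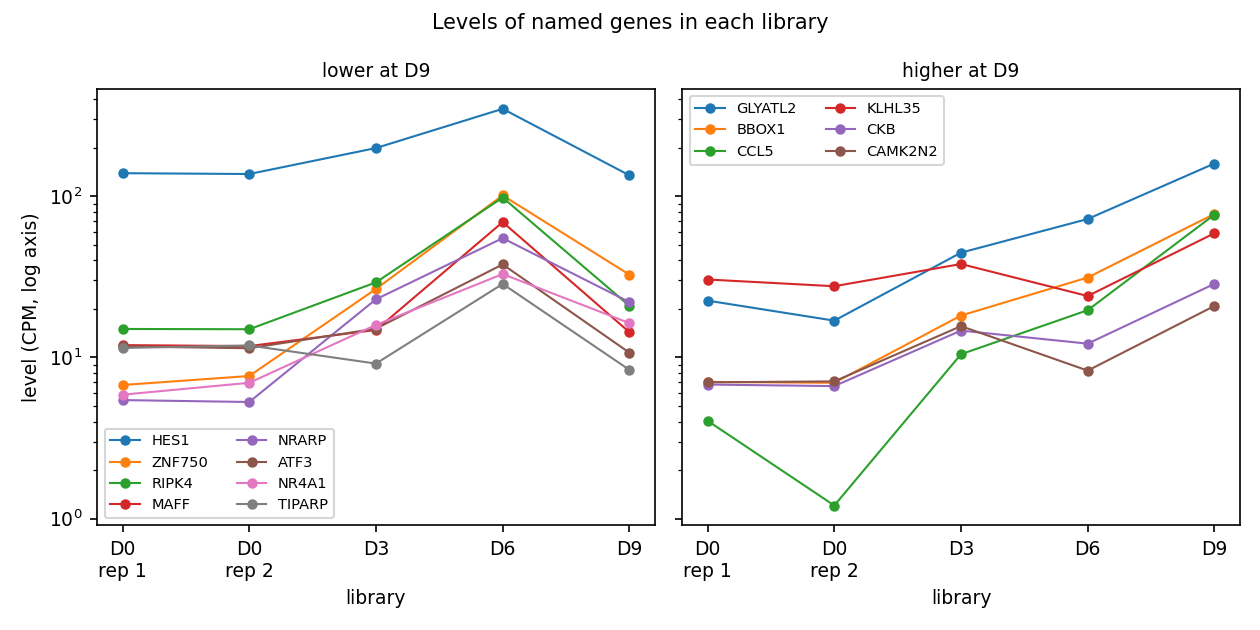
Level in CPM (vertical log axis) of genes lower at D9 (left) and higher at D9 (right) in the 5 libraries (horizontal axis); each point is 1 library and carries no error bar. RIPK4 and MAFF are highest at D6 (98.0 and 69.03 CPM) and are at 20.9 and 14.3 CPM at D9, and BBOX1 and GLYATL2 are highest at D9 (77.6 and 159 CPM).

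Genes higher at D9 numbered 46 against 171 lower, but this balance depended on which cells entered and on the weight of each cell. In cells with 10000 to 20000 UMIs, 352 were higher and 301 lower. With every cell kept and weighted alike, the counts were 221 and 232 after thinning, and 190 and 190 by the mean of per-cell CPM. Of the 46, 27 lay below both D0 libraries at D6 and 22 of those lay above both at D9, and 41 of the 46 lay above both at D9. Of all 8661, 3496 lay below both at D6, 1395 of which lay above both at D9, and 5493 lay above both at D9. The 5 that passed in both fits were CCL5, IFIT2, CAMK2N2, KLHL35 and CYB561D2. KLHL35, a protein of the Kelch-like family, stood at 30.4 and 27.6 CPM in D0, 38.0 at D3, 24.0 at D6 and 58.9 at D9 (log2 ratio 1.26, interval 1.10 to 1.43, and 1.13 under 10% MT-). CAMK2N2, an inhibitor of calmodulin-dependent kinase II, was at 8.29 CPM at D6 and 20.9 at D9 (1.30 and 1.18), and CYB561D2 at 14.1 and 29.7 (1.05 and 1.10). CYB561D2 passed the fold in only 6 of the 10 planned settings that give a ratio per gene, with 0.66 after thinning. It was at 0.76 in cells at or over 10% MT- and at 0.41 length-adjusted. KLHL35 was found in 9.98% of thinned D6 cells (8.14 to 12.1) and 21.6% of D9 cells (19.2 to 24.1), so its level was spread over many cells.

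CCL5 and IFIT2 were different, because few cells held most of their counts. CCL5, a chemokine, stood at 4.05 and 1.21 CPM in D0, 10.5 at D3, 19.6 at D6 and 76.8 at D9 (1.94, interval 1.76 to 2.12). It was found in 22 D6 and 40 D9 cells before thinning, a single D9 cell held 581 of the 1815 D9 counts, and 14 cells held 90% of them. After thinning, CCL5 was found in 1.59% of D6 cells (0.894 to 2.61) and 2.72% of D9 cells (1.86 to 3.84), and these intervals overlap. IFIT2, an interferon-induced protein, stood at 17.4, 0.995, 17.4, 9.82 and 26.4 CPM (1.40), and 5 cells held 80.1% of its 624 D9 counts. The D0 libraries alone differed by more for IFIT2 than D6 and D9 did. Its log2 ratio was 2.94 in cells under 10% MT- and -0.45 in cells at or over 10%.

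BBOX1 and GLYATL2 passed the fold in all cells and in cells at or over 10% MT- (1.22 and 1.02), but not under 10%. BBOX1, the last enzyme of carnitine synthesis, stood at 7.14 and 6.96 CPM in D0, 18.2 at D3, 31.3 at D6 and 77.6 at D9 (1.28, interval 1.14 to 1.43, and 0.99 under 10% MT-). GLYATL2, a glycine N-acyltransferase, stood at 22.5, 16.9, 44.6, 72.2 and 159 CPM (1.11, and 0.67 under 10% MT-). Each was higher at D3 than in D0, at D6 than at D3 and at D9 than at D6. BBOX1 was found in 12.2% of thinned D6 cells (10.2 to 14.5) and 29.1% of D9 cells (26.5 to 31.9), and GLYATL2 in 23.7% (20.99 to 26.5) and 47.5% (44.6 to 50.4). Of 16 genes of fatty acid oxidation and carnitine compared, these 2 passed the fold and none was lower (median 0.45, 0.14 under 10% MT- and 0.21 length-adjusted). CKB, the brain-type creatine kinase, was at 12.2 and 28.6 CPM (1.20, and 0.86 under 10% MT-).

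Interferon-stimulated genes had no common direction. Of 22 compared, IFIT2 and ISG20 (9.18 and 23.8 CPM, 1.34) were higher and none lower, with a median of 0.36. In cells under 10% MT- the median was -0.28, with 1 gene higher and 2 lower, and length-adjusted it was -0.03. ISG15 went from 0.42 to -0.41. Among chemokines and NF-kB feedback genes, CCL5 and LCN2 (33.5 and 71.5 CPM, 1.06) were higher and CX3CL1 (49.2 and 24.3 CPM, -1.05) lower of 11. LCN2, an iron-siderophore-binding protein, was at 0.49 and CX3CL1, a membrane chemokine, at -0.50 in cells under 10% MT-.

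Other groups were higher at D9 by less than the fold. Proteasome subunits had a median of 0.65, with 30 of 31 above 0 (PSMA5 at 139 and 274 CPM, 0.95, and PSMD6 at 35.0 and 68.2, 0.93) and 0.34 in cells under 10% MT-. Class I antigen presentation genes had a median of 0.51, with 9 of 12 above 0, and B2M, the light chain of class I molecules, was at 496 CPM at D6 and 933 at D9 (0.88, and 0.41 under 10% MT-). Genes of the lysosome and the vacuolar proton pump had 0.36, with 25 of 29 above 0 (ATP6V0E1 at 204 and 405 CPM, 0.96). Hypoxia and glycolysis genes had 0.47, with 12 of 16 above 0 (LDHA at 173 and 321 CPM, 0.86). In each of the 4 groups no member passed the fold. The median over all genes of over 1000 and up to 2000 bases was 0.44, as given above, and after the running median of genes of like length was taken off the 4 groups had 0.16, 0.11, 0.08 and 0.12.

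Of the ERBB receptors and ligands listed, 3 were compared, EGFR, ERBB2 and ERBB3, and none passed the fold. No value is given for ERBB4, which afatinib also binds. EGFR stood at 834 and 871 CPM in D0, 946 at D3, 838 at D6 and 584 at D9 (-0.55, interval -0.59 to -0.52, and -0.43 under 10% MT-). ERBB2 stood at 24.7 and 24.4 CPM at D6 and D9 (-0.05, interval -0.24 to 0.14) and ERBB3 at 36.0 and 35.9 (-0.03, interval -0.19 to 0.12), so a difference was not detectable at this depth for either. The EGFR ligand AREG was at 34.5 and 26.7 CPM in D0 and had 28 counts at D6 and 30 at D9 (1.78 and 1.27 CPM). IGFBP2, which binds insulin-like growth factors, stood at 127, 127, 227, 217 and 287 CPM (0.38, interval 0.32 to 0.44) and was at 0.31 under 10% MT- and 0.06 at or over 10%, but at -0.07 after the running median of genes of like length was taken off. IGF1R was at 29.3 CPM at D6 and 18.2 at D9 (-0.71, and -0.43 under 10% MT-).

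ERK output and feedback genes, YAP and TEAD targets and the IGF axis were mostly a little lower. Of 12 ERK output and feedback genes none passed the fold, with a median of -0.44, or -0.35 length-adjusted (EGR1, an immediate early factor, at 17.0 and 9.05 CPM, -0.94, and SPRY1, a feedback inhibitor, at 25.1 and 13.4, -0.93). In cells under 10% MT- the median was -0.61, and EGR1 (-1.22) and SPRY1 (-1.03) passed. YAP and TEAD targets had a median of -0.57 (-0.41 length-adjusted), with 0 of 12 above 0 and AMOTL2 past the fold (112 and 55.7 CPM, -1.04). The IGF axis had -0.62 over 10 genes (-0.33 length-adjusted). INHBB, the activin beta B subunit, was at 29.8 and 11.9 CPM (-1.35, and -1.42 under 10% MT-).

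Of the genes of proliferation, none passed the fold. G2 and mitosis genes had a median of 0.13 over 35 and S phase genes 0.19 over 31, and the medians were -0.00 and 0.08 in cells under 10% MT- and 0.03 and 0.06 length-adjusted. In cells with 10000 to 20000 UMIs the G2 and mitosis median was -0.62. MKI67 was at 240 CPM at D6 and 219 at D9 (-0.17). Per cell, after thinning to 5000 UMIs, G2 and mitosis genes took a median of 0.30% of UMIs at D6 and 0.34% at D9, against 0.41% and 0.40% in D0, and the 90th percentile was 0.92% and 1.14%.

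The remaining lists held few genes past the fold. Luminal and secretory genes had a median of 0.41 over 13, with LCN2 alone past it, 0.14 in cells under 10% MT- and 0.09 length-adjusted. Basal keratins and squamous differentiation genes had 0.07 over 14 (-0.24 length-adjusted), with 3 lower (RIPK4, ZNF750 and S100A2). Antioxidant and glutathione genes had 0.22 over 20 and heat shock genes 0.05 over 16, none past the fold. Stress response genes of the endoplasmic reticulum and the integrated stress response had -0.01 over 19 (-0.31 length-adjusted), with ATF3 lower and CHAC1, a glutathione-degrading enzyme, higher (1.02, and 0.63 under 10% MT-). BCL2 family genes had 0.03 over 12 (-0.18 length-adjusted), with BBC3 lower and BIK, a pro-apoptotic member, higher (1.06, and 0.41 under 10% MT-). Cholesterol and fatty acid synthesis genes had -0.20 over 27 (-0.14 length-adjusted), with lanosterol synthase LSS lower (-1.03, and -0.59 under 10% MT-). Epithelial adhesion genes had -0.09 over 17 and matrix and mesenchymal genes -0.07 over 5, none past the fold.

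MALAT1, a nuclear RNA, differed with the MT- share of the cells. It stood at 5876 and 6938 CPM in D0, 16704 at D3, 20965 at D6 and 10775 at D9 (-0.99), and was level in cells under 10% MT- (0.02, interval 0.00 to 0.04). NEAT1, another nuclear RNA, was at 813 and 527 CPM (-0.65) and at 0.05 in cells under 10% MT-. Long genes, such as the chromatin modifiers, had a median of -0.18 over 29 genes in all cells and -0.08 in cells under 10% MT-. What part the MT- share of the cells had in the other ratios of all cells was not tested beyond these 2 strata.

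**Figure D5:**
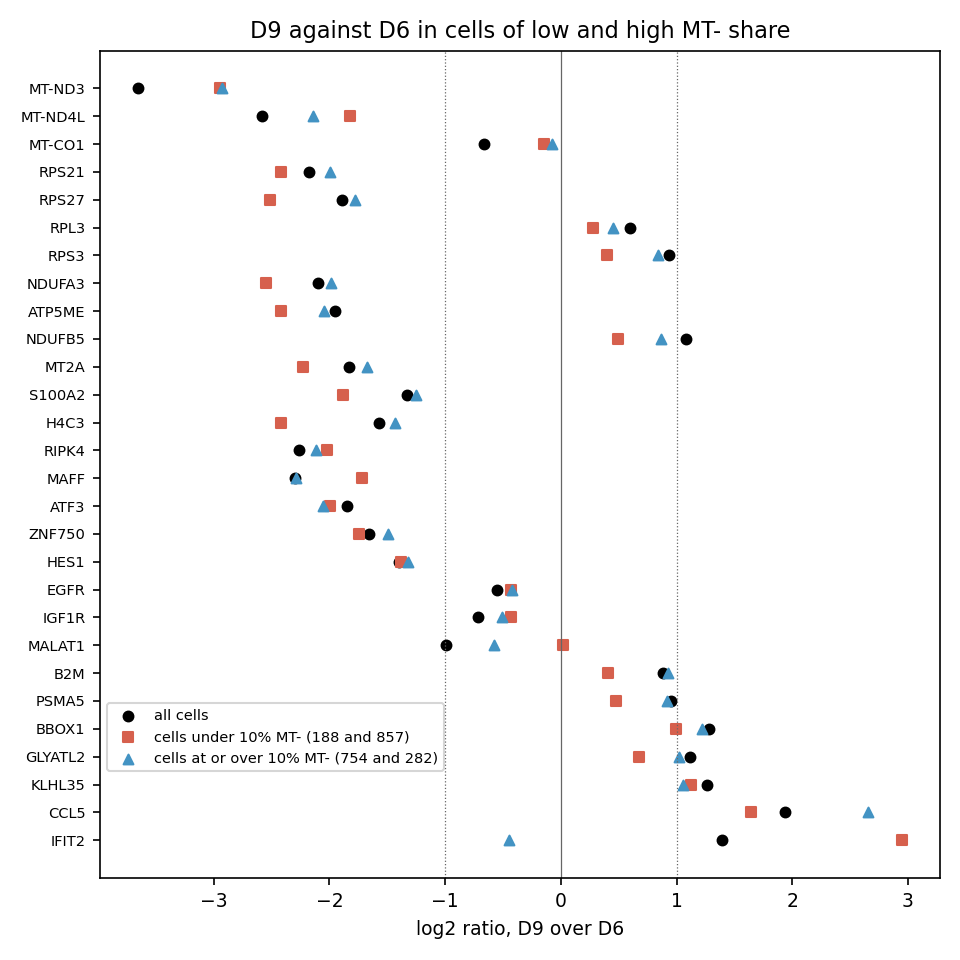
Log2 ratio of D9 over D6 (horizontal axis) of named genes (rows) in all cells (circles), in cells under 10% MT- (squares) and in cells at or over 10% MT- (triangles); dotted lines mark the 2-fold limits. MT-ND3, RPS21, RIPK4, MAFF and ATF3 lie beyond the lower limit in all 3 sets of cells, MALAT1 lies at 0.02 in cells under 10% MT-, and IFIT2 changes sign between the strata (2.94 and -0.45).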

How the data were processed

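Single-cell 3′ libraries of MDA-MB-468 cells were aligned by the authors to GRCh38 with Cell Ranger 6.1.2. The deposited matrix holds expected counts for 12474 genes in 4101 cells: per the study's methods, UMI counts after cell filters and a ComBat-seq batch adjustment. All values were whole, and rounding changed none. Doublets were not called again here. Library names in the cell barcodes gave the 5 libraries, and 0 sample columns were left unused. Symbols came from the file and the reference table (398 filled, 25 identifiers without one).

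Counts were summed per library and scaled with TMM (edgeR 4.0.16 in R 4.3.3). Log2 ratios used a pseudocount of 0.5 counts, on genes whose mean over both libraries reached 10 CPM, and 2-fold was the limit for counting a gene. With 1 library a day no test was possible, so no count model was fitted. Intervals are 95% exact intervals of the adjusted counts. Of 7853 genes that could be checked at D6, 4497 had no cell with a count of 2, and at D9 4804 of 8551. The intervals and the thinned shares rest on these counts and are not exact for raw UMIs. Shares of cells with a UMI were taken after thinning every cell to 5000 UMIs, which lost no cell. Totals of 15688089 and 23638242 counts set the precision.

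Named genes were the 15 largest ratios in each direction averaging 20 CPM or more and past the fold in both sets of cells, up to 4 members of each list past the fold or else the 2 largest, and 8 genes of interest (EGFR, ERBB2, ERBB3, IGFBP2, IGF1R, AREG, CCL5 and MALAT1). Further genes named in the text were chosen after their values were seen. Members and the 39 gene lists were chosen with earlier results of these data known, and the lists of cytosolic and mitochondrial ribosomal proteins were added after the values were seen. Transcript and coding lengths are those of the canonical transcript in GENCODE v44. The running median of like lengths was over 51 genes. The scripts were tested on simulated data with known fold changes. In all, 12 alternatives were planned and 2 were added after seeing the data.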

Additional observations from a re-analysis of the deposited data

How the results depend on the processing

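The counts of genes past the fold depended on which cells and genes entered and on the weight of each cell. Higher at D9 were 46 genes in the reported comparison, 5 in cells under 10% MT-, 11 in cells under 15%, 352 in cells with 10000 to 20000 UMIs, 221 after thinning, 190 by the mean of per-cell CPM, 214 with no filter on low values and 13 at a mean of at least 50 CPM. Lower at D9 were 171 genes, 301 in cells with 10000 to 20000 UMIs, 496 with no filter and 76 at 50 CPM, against 232 after thinning and 190 by per-cell CPM. The causes were not tested, beyond that the filters change how many genes are compared. Under DESeq2 size factors the counts were 48 and 170, and under total counts 57 and 165. IFIT2 turned to -0.92 in cells with 10000 to 20000 UMIs and -0.45 in cells at or over 10% MT-. With the running median of like transcript length taken off, MT1X and the median of the metallothioneins turned to 0.10 and RPS29 to 0.037; that setting and the one at or over 10% MT- were added after seeing the data. Of 69 named genes past the fold, 37 stayed past it in each of the 10 planned settings that give a ratio per gene. Of 38 list medians over these 10 settings, the sign changed 40 times, 10 of them in cells under 10% MT- and 10 in cells with 10000 to 20000 UMIs. The median of interferon-stimulated genes went from 0.36 to -0.28 in cells under 10% MT-.

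No paired analysis was possible because D6 and D9 have 1 library each, whose titles name no replicate. For the same reason no library was left out. Day, capture and library cannot be told apart, and the adjusted counts are not the raw UMIs. The paper reports clones that grew in share under treatment, and clone make-up was not separated from day here. Reads of near-identical gene copies and the short overlapping mitochondrial genes were not separated. Depth limits genes such as AREG, with 28 and 30 counts.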
